A study of Gallus gallus with 2 samples.

Results

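MicroRNA precursor loci are the short stretches of the genome that encode the hairpins from which miRNAs are cut. All rows that the deposited tables class as miRNA were taken, without any use of their values, which gave 1049 loci among 26656 listed genes. Of these, 648 carried a chicken miRNA name and 401 had an Ensembl identifier only. The loci were 47 to 169 bases long, with a median of 98 bases. Each locus was then placed by whether an annotated gene or a gene model assembled by the authors covered it entirely on the same strand. No sequence of a precursor or of a mature miRNA was used here.

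A miRNA is transcribed as part of a long primary transcript, which may be a gene of its own or the intron of a host gene. The Microprocessor (the nuclease DROSHA with its partner DGCR8) cuts the hairpin out in the nucleus, and DICER1 in the cytoplasm then trims it to the mature miRNA that an Argonaute protein carries to its target mRNAs. Neighbouring loci often share a primary transcript. Mature miRNAs are too short for libraries of fragmented mRNA, so reads on these loci are read here as those of primary or host transcripts, and nothing is said of mature miRNA levels.

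RNA-seq was performed on cells isolated from chicken testis and labelled as SSCs, in 2 libraries. The shLSD1 library came from cells transfected with an interference vector against LSD1, a histone demethylase that acts on H3K4me2. The Blank library came from untreated cells, so the groups differ by the transfection as well as by the vector's target. Both were made from testes of embryos in eggs incubated for 18.5 days, cultured in the same medium, and 1 library represented each group. No spread between replicates exists, every interval below covers counting error only, and every comparison is one of 2 libraries and not of the treatments.

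In total, 8245826 reads in shLSD1 and 8731455 in Blank were counted on listed genes. LSD1 (KDM1A) was listed at 0 reads in each library, as was the assembled model over it, so the interference could not be checked in these counts. Of 10 germ cell genes, 6 had under 20 reads of their own over both libraries, among them KIT with 1 read in shLSD1 and 3 in Blank and NANOG at 0. With reads of overlapping assembled models added, a choice made after the data were seen, 5 did, since the model over the meiotic gene SYCP3 held 250 reads in shLSD1 and 309 in Blank. DDX4, a germ cell RNA helicase, had 11 reads in shLSD1 and 23 in Blank. GFRA1 and ZBTB16, which SSCs express, had 192 and 279 reads in shLSD1, and 149 and 219 in Blank. The share of germ cells is unknown. In such mixed cell samples fewer cells of a type and less RNA per cell cannot be told apart.

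Most miRNA loci carried no reads. A read was counted on 295 of the 1049 loci, or 28.1% (Wilson 95% interval 25.5% to 30.9%), while 754 were at 0 in both libraries. For comparison, 64.7% of the 15508 protein-coding genes had reads, whose median length was 2010 bases. All miRNA loci together held 989 reads in shLSD1 and 1070 in Blank, which was 0.0120% and 0.0123% of the library. For counting error alone, a count of 0 allows up to 0.364 CPM (reads scaled to the library total) in shLSD1 and 0.344 CPM in Blank. It does not bound expression here, because genes such as DGCR8 were listed at 0 while an assembled model over them held 580 reads in shLSD1 and 847 in Blank. Loci with a miRNA name had reads more often (236 of 648, 36.4%) than those with an identifier only (59 of 401, 14.7%). Reads occurred in both libraries at 146 loci, in shLSD1 alone at 84 and in Blank alone at 65, and none of those seen in a single library exceeded 6 reads. Whether this split differs from that of other genes with as few reads was not tested. Of the loci with reads, 156 had 1 or 2, 93 had 3 to 9, 22 had 10 to 19 and 24 had at least 20.

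Covered loci had reads more often as a whole, but those under an annotated gene alone had them about as often as loci with no cover. Of the 462 loci covered on the same strand, 156 had reads, or 33.8% (29.6% to 38.2%), against 139 of 587 with no such cover, or 23.7% (20.4% to 27.3%). By kind of cover, 42.4% (35.9% to 49.1%) of 210 loci under both an annotated gene and an assembled model had reads, against 22.9% (17.3% to 29.6%) of 175 under an annotated gene only. Those under an assembled model only lay between them, with 27 of 77 loci. A model assembled from reads needs reads to exist, and the part of this in the order was not tested. Among covered loci the share with reads was 18.5% for the 27 loci whose covering features held 0 reads, 26.5% at 1 to 99 reads, 35.7% from 100 up to 1000 and 42.4% at 1000 or more. Loci in a cluster or a shared host are not independent, so these intervals are too narrow, and no test was run.

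**Figure D1:**
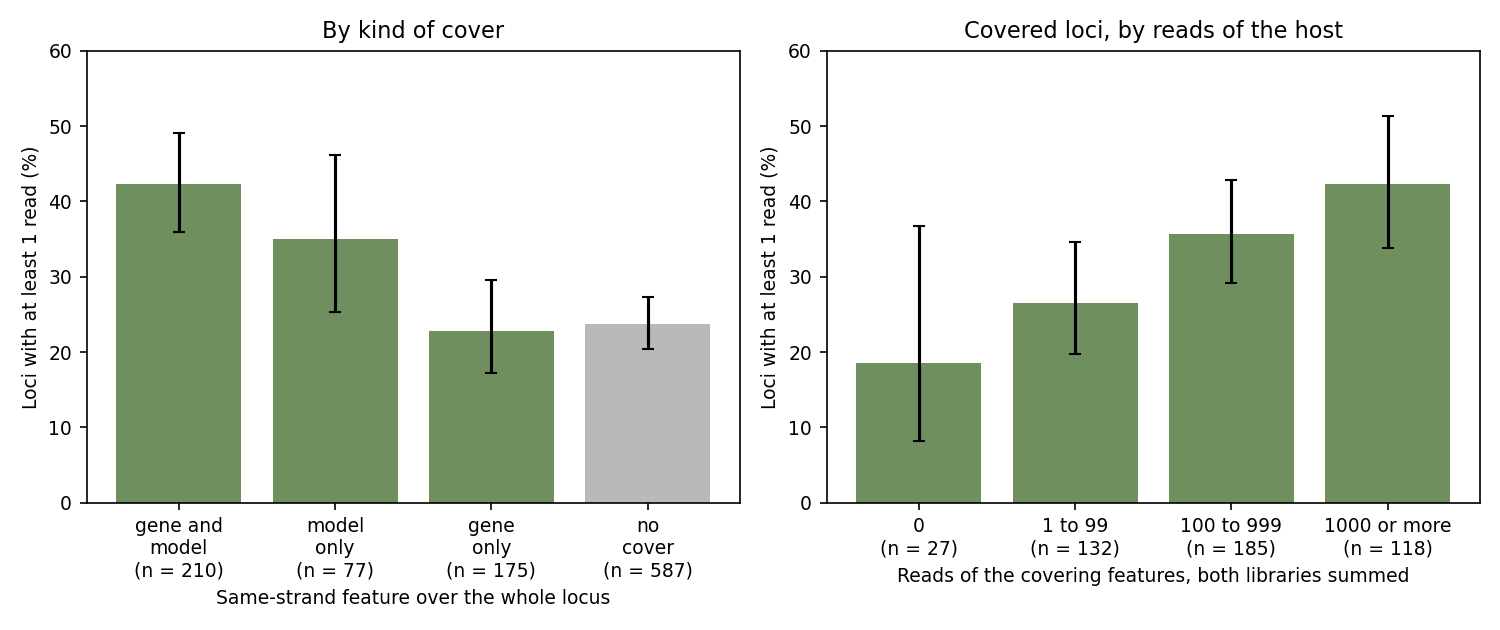
Share of miRNA loci with at least 1 read over both libraries (vertical axes, %), by the same-strand feature over the locus (left) and, for covered loci, by the summed reads of the covering features (right). Bars are shares, error bars Wilson 95% intervals, and n is the number of loci. The highest bars are the 42.4% of loci under both a gene and a model, and the 42.4% of loci whose host held 1000 or more reads.

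Summed over loci, covered loci held 370 reads in shLSD1 and 462 in Blank, a log2 ratio of shLSD1 to Blank of -0.24 (95% interval -0.44 to -0.04). This difference rested on a single locus, gga-mir-1661: without it the covered loci held 351 reads in shLSD1 and 373 in Blank, a log2 ratio of -0.0050 (-0.22 to 0.21). Loci with no same-strand cover held 619 reads in shLSD1 and 608 in Blank, a log2 ratio of 0.11 (-0.06 to 0.27). Thus, with gga-mir-1661 left out, the intervals of both classes included 0.

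The 24 loci with at least 20 reads held 54.8% of all miRNA reads, and the 4 deepest held 24.9%. Their median log2 ratio was -0.04, beside -0.01 over the 12081 genes with at least 20 reads. At least 2-fold higher in shLSD1 was 1 of 24 loci, gga-mir-6652, and 1 was at least 2-fold lower, gga-mir-1661. In all genes of this depth, a 2-fold difference was found for 4.03%, of which the higher ones made 2.21% of genes and the lower ones 1.82%. Among the 5074 genes in the same range of 20 to 172 reads, a background added after the data were seen, the shares were 9.01% in all, 4.97% for the higher and 4.04% for the lower ones. At this read limit, the number of miRNA loci apart was close to the background of genes with as few reads. In the same way, 1 locus had an exact interval above 0 and 1 below it, against 7.71% and 6.86% (14.6% in all) of the genes in that range and 28.3% in all of the genes with at least 20 reads. The other 22 loci had log2 ratios of -0.88 to 0.85, each with an interval that includes 0, and most of these intervals reach 2-fold.

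**Figure D2:**
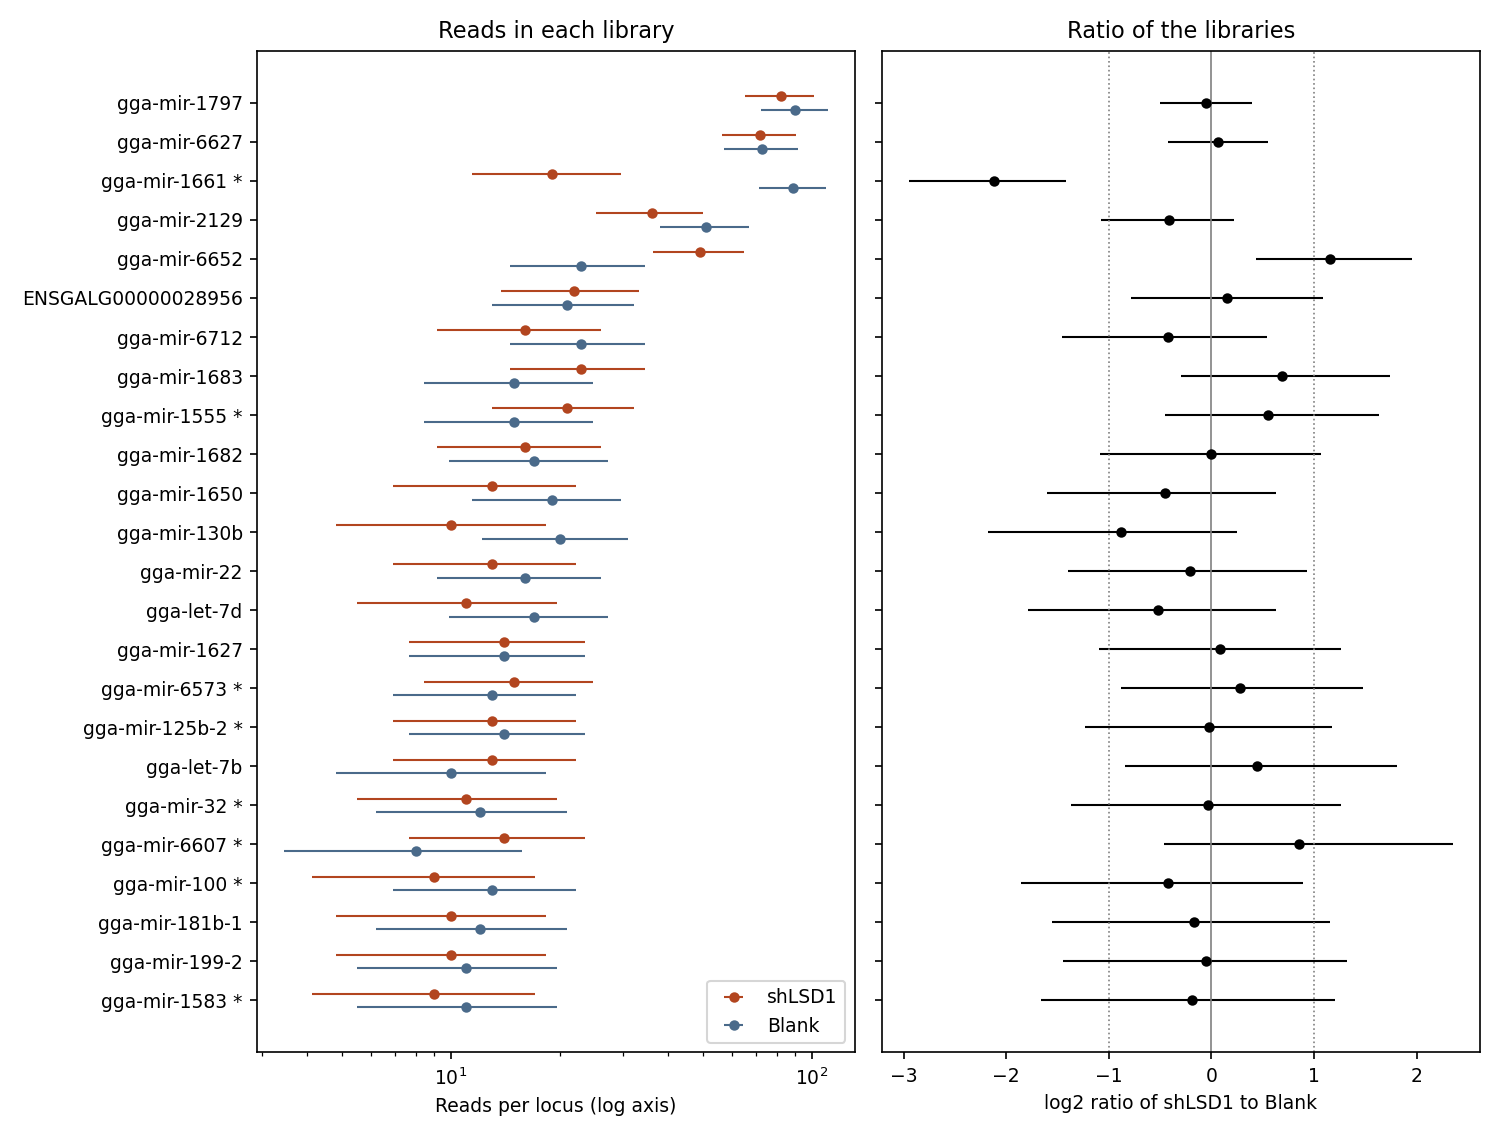
The 24 miRNA loci with at least 20 reads, from the most reads down. The left panel gives reads in shLSD1 (upper point) and Blank (lower point) with exact Poisson 95% intervals on a log axis, and the right panel log2 ratios (shLSD1 over Blank) with Clopper-Pearson 95% intervals (dotted lines: 2-fold). A star marks a locus covered on its own strand. Only gga-mir-1661 (log2 ratio -2.12) and gga-mir-6652 (1.16) have intervals that leave out 0.

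The largest difference was at gga-mir-1661 (ENSGALG00000025240), a minus-strand locus of 61 bases (chromosome 2, 19683389 to 19683449, genome build not named in the files). It had 19 reads in shLSD1 and 89 in Blank, a log2 ratio of -2.12 (-2.94 to -1.42). In the range of 20 to 172 reads, 20 of 5074 genes had a log2 ratio this low or lower. The locus lies inside vimentin (VIM, ENSGALG00000008677, 19677910 to 19684966), the intermediate filament protein of mesenchymal cells. The host itself had 41286 reads in shLSD1 and 43898 in Blank, a log2 ratio of -0.0059 (-0.03 to 0.01). Relative to its host, the locus was therefore lower in shLSD1, with a log2 ratio of ratios of -2.11 (exact conditional 95% interval -2.94 to -1.41). Per length, the locus stood at 37.6 FPKM in shLSD1 and 166 FPKM in Blank, while vimentin stood at 3604 FPKM in shLSD1 and 3612 FPKM in Blank. The locus thus had 1.04% of its host's FPKM in shLSD1 and 4.60% in Blank, the lowest share among the covered loci with at least 20 reads. The files give no exon positions, so whether the reads are intronic was not tested.

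The locus higher in shLSD1 was gga-mir-6652 (ENSGALG00000028760), 110 bases on the plus strand of chromosome 13 from 8253534 to 8253643. It had 49 reads in shLSD1 and 23 in Blank, a log2 ratio of 1.16 (0.43 to 1.96), and 162 of the 5074 genes in the same range had a ratio as high or higher. No gene covers it on its own strand, but the ends of 2 assembled models on the other strand each share 4 bases with it. Both models were also higher in shLSD1, one with 1128 reads in shLSD1 and 855 in Blank (log2 ratio 0.48, 0.35 to 0.61) and the other with 756 reads in shLSD1 and 541 in Blank (0.56, 0.40 to 0.73). Against these models the log2 ratio of ratios of the locus was 0.68 (-0.06 to 1.49) and 0.59 (-0.15 to 1.41), so that both intervals included 0. By name, the locus falls within NEURL1B in RefSeq's gene table of assembly GRCg7b. The kit named in the labels does not mark strand, so reads of either strand count alike.

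Of the 24 loci, 16 had no cover on their own strand in the files. Of these, 12 lay within 10000 bases of a listed gene or model on either strand, and 13 fell within the span of a gene in RefSeq's later table (GRCg7b, names only, strand not given). The deepest was gga-mir-1797, with 82 reads in shLSD1 and 90 in Blank (log2 ratio -0.05, -0.50 to 0.40). It lies 1766 bases from RAB29, a small GTPase gene with 326 reads in shLSD1 and 324 in Blank. By name, gga-mir-1797 falls within RAB7L1 and LOC124417408 in RefSeq. RAB7L1 is an older symbol of RAB29, which lies on the same strand as the locus in the files. Whether the entries are the same gene was not tested. Next came gga-mir-6627, with 72 reads in shLSD1 and 73 in Blank, which lies 354 bases from PRADC1 on the opposite strand and within SMYD5 in RefSeq. For gga-mir-2129, within FOXK1 in RefSeq, 36 reads in shLSD1 and 51 in Blank gave a log2 ratio of -0.41 (-1.08 to 0.22). An unnamed locus (ENSGALG00000028956) had 22 reads in shLSD1 and 21 in Blank and lies 1136 bases from SMAD6, an inhibitor of BMP signalling with 699 reads in shLSD1 and 697 in Blank. Further, gga-mir-1683 had 23 reads in shLSD1 and 15 in Blank. It lies 334 bases from XPNPEP3 as listed in the files, on the same strand, but within XPNPEP3 in RefSeq. XPNPEP3 ran the other way, with 575 reads in shLSD1 and 701 in Blank. The locus interval of -0.30 to 1.74 includes 0. Of 39 reads at gga-mir-6712, 16 were in shLSD1 and 23 in Blank, and an assembled model over it on the opposite strand had 9 reads in shLSD1 and 21 in Blank. Among the remaining loci, gga-mir-1682 had 16 reads in shLSD1 and 17 in Blank, and gga-mir-1627 had 14 in each. For gga-mir-1650, within CDK6 in RefSeq, the counts were 13 in shLSD1 and 19 in Blank.

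Conserved miRNA families made up the rest of the uncovered group. The locus of gga-mir-130b had 10 reads in shLSD1 and 20 in Blank, a log2 ratio of -0.88 (-2.18 to 0.25), just short of 2-fold and within counting error. It lies in a cluster with gga-mir-454, gga-mir-301a and gga-mir-130a, members of a family that shares a seed in mammals. The 4 loci together held 14 reads in shLSD1 and 23 in Blank (-0.61, -1.71 to 0.39). At gga-mir-22, 13 reads in shLSD1 and 16 in Blank were counted. The pair gga-mir-181a-1 and gga-mir-181b-1, 278 bases from end to end on chromosome 8, held 16 reads in each library. Last, gga-mir-199-2 had 10 reads in shLSD1 and 11 in Blank. An assembled model on the opposite strand spans the locus and held 5910 reads in shLSD1 and 6464 in Blank over its whole length. With no strand in the library, reads of the model at the locus cannot be told apart from those of the locus. By name, the locus falls within DNM3 in RefSeq, which was not compared with the model.

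The question for the 8 covered loci with at least 20 reads was whether they moved with their host, the covering feature with the most reads. Apart from gga-mir-1661, every one of the other 7 had a log2 ratio of ratios between -0.47 and 0.59, with intervals that include 0. These intervals were wide, such as -2.12 to 1.15 for gga-mir-6573 and -0.73 to 2.09 for gga-mir-6607. Each of the 7 reaches beyond 2-fold, so a departure of that size from the host could have been missed. For 7 of the 8, the host was an assembled model. Where an annotated gene also covered the locus it held fewer reads, which follows from the choice of host. Thus gga-mir-1555 had 21 reads in shLSD1 and 15 in Blank, inside a model with 86 reads in shLSD1 and 67 in Blank, while FARP1 over the same stretch was at 0. TMEM245 had 6 reads in shLSD1 and 17 in Blank, while a model over it held 481 reads in shLSD1 and 600 in Blank, and gga-mir-32 in it held 11 in shLSD1 and 12 in Blank. For gga-mir-6607, in a model over PPP1R12B, a regulatory subunit of myosin phosphatase, 14 reads in shLSD1 and 8 in Blank gave 0.85 (-0.46 to 2.35), and PPP1R12B itself had 41 reads in shLSD1 and 16 in Blank. Its host model, with 1734 reads in shLSD1 and 1531 in Blank, had a log2 ratio of 0.26 (0.16 to 0.36). The DNA repair gene XPA was at 0 under a model with 382 reads in shLSD1 and 435 in Blank, and gga-mir-1583 in it held 9 in shLSD1 and 11 in Blank. For gga-mir-6573 the counts were 15 in shLSD1 and 13 in Blank. Its host was a model with 21 reads in shLSD1 and 13 in Blank, while GPATCH8 under that model was at 0. The FPKM of a host here is that of the model alone, and how reads were shared between gene and model is not known. Per length, gga-mir-6573 stood at 3168% of its host's FPKM in shLSD1 and 4435% in Blank. The loci of gga-mir-1555, gga-mir-125b-2 and gga-mir-32 also stood above their host in each library. Those of gga-mir-1661, gga-mir-6607 and gga-mir-100 stood below it, and gga-mir-1583 had 94.3% in shLSD1 and 101% in Blank. Whether reads at these loci are those of the host was not tested.

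**Figure D3:**
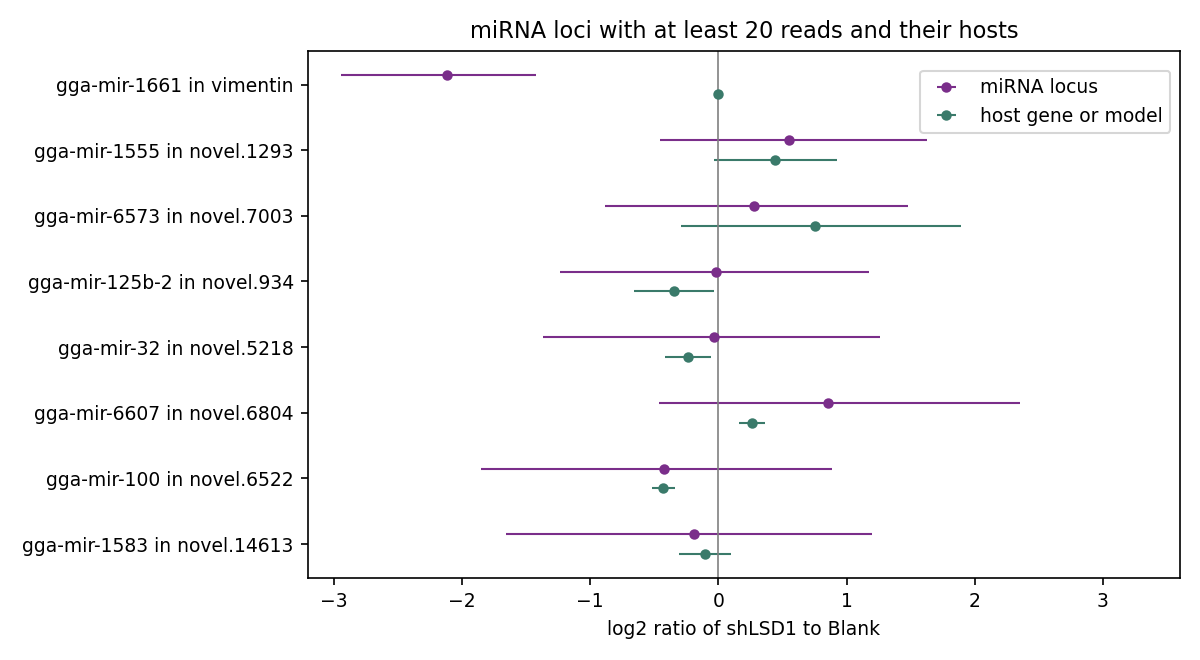
log2 ratio of shLSD1 to Blank (horizontal axis) for the 8 covered loci with at least 20 reads (upper point of each pair) and for the host (lower point), with Clopper-Pearson 95% intervals. In 7 pairs the interval of the locus includes the value of the host, and gga-mir-1661 lies at -2.12 beside -0.0059 for vimentin.

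With at least 10 reads, a limit tried after the data were seen, 21 loci had a host with at least 20 reads, and 3 were apart from it, each with the locus lower in shLSD1 relative to the host. Besides gga-mir-1661 these were gga-mir-1804 and gga-mir-6690. At gga-mir-1804, in a model over HNRNPDL, an RNA-binding protein gene, 4 reads in shLSD1 and 14 in Blank stood against 86 reads in shLSD1 and 66 in Blank in the host (log2 ratio of ratios -2.07, -4.30 to -0.42). At gga-mir-6690, in a model over the protease gene CTSB, 5 reads in shLSD1 and 10 in Blank stood against 76 in shLSD1 and 30 in Blank in the host (-2.26, -4.34 to -0.50). HNRNPDL and CTSB themselves were listed at 0 in each library, so these host counts are those of the models alone. How reads were shared between gene and model is not known. Neither interval is corrected for the 21 pairs. How often other genes depart from an overlapping feature in this way was not computed, so 3 of 21 and the shared direction have no background. For gga-mir-126, an endothelial miRNA in EGFL7, the log2 ratio of ratios was 0.0047 (-1.80 to 1.89), from 7 reads in shLSD1 and 6 in Blank at the locus, and 329 in shLSD1 and 286 in Blank in EGFL7.

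The let-7 family is of interest because Lin28A, the subject of the study, blocks the maturation of let-7. Of 11 let-7 loci, 8 had reads, and together they held 29 reads in shLSD1 and 41 in Blank, a log2 ratio of -0.41 (-1.16 to 0.30), so that no difference was detectable at this depth. The deepest was gga-let-7d (ENSGALG00000018264, chromosome 12 from 6076930 to 6077032), with 11 reads in shLSD1 and 17 in Blank. It forms a cluster of 1549 bases with gga-let-7f and gga-let-7a-1. At gga-let-7f, 0 reads in shLSD1 and 6 in Blank were counted, for which the exact interval of the log2 ratio lay below -0.15, and gga-let-7a-1 had 1 in each. Summed, this cluster held 12 reads in shLSD1 and 24 in Blank, with a log2 ratio of -0.89 (-2.05 to 0.14). The second cluster, gga-let-7a-3 with gga-let-7b on chromosome 1, held 13 reads in shLSD1 and 11 in Blank (0.31, -0.95 to 1.63), nearly all on gga-let-7b. Low counts were found at gga-let-7i, with 1 read in shLSD1 and 4 in Blank, and at gga-let-7j, with 2 reads in shLSD1 and 1 in Blank. The loci of gga-let-7c, gga-let-7g and gga-let-7k were at 0 in both libraries, although WDR82, the host of gga-let-7g, had 1494 reads in shLSD1 and 1471 in Blank.

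**Figure D4:**
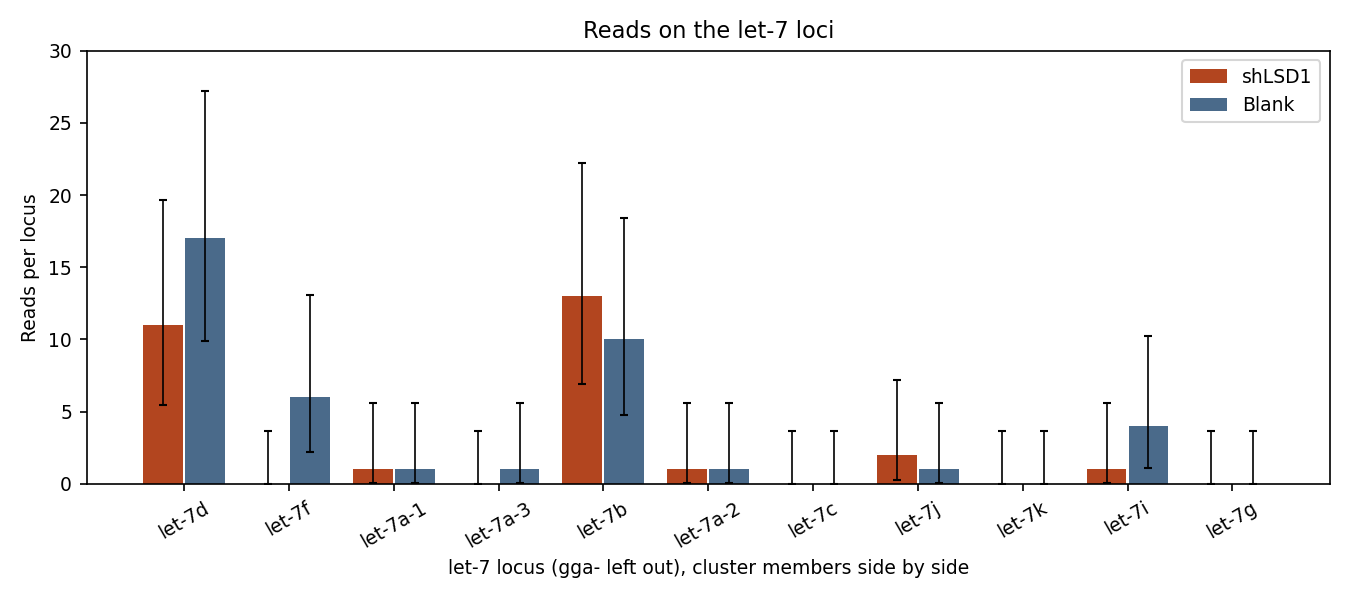
Reads (vertical axis) on the 11 let-7 loci in shLSD1 (left bar) and Blank (right bar), with exact Poisson 95% intervals. Most reads lie on let-7d (11 in shLSD1 and 17 in Blank) and let-7b (13 in shLSD1 and 10 in Blank), and the intervals of the libraries overlap at every locus.

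The hosts of gga-let-7a-2 and gga-let-7c are assembled models with far more reads than the loci in them. The model on chromosome 24 (3297114 to 3363066, plus strand) covers gga-mir-100, gga-let-7a-2, gga-mir-6675 and an unnamed locus (ENSGALG00000027422). By name, gga-mir-100 and gga-let-7a-2 fall within the noncoding gene LOC107055055 in RefSeq, which was not compared with the model itself, and in humans the homologous cluster lies in the noncoding host MIR100HG. It had 1677 reads in shLSD1 and 2393 in Blank, a log2 ratio of -0.43 (-0.52 to -0.34). The loci in it were too shallow to show such a difference, with 9 reads in shLSD1 and 13 in Blank at gga-mir-100, 1 in each at gga-let-7a-2, and 8 in shLSD1 and 7 in Blank at the unnamed locus. The model on chromosome 1, which covers gga-mir-99a, gga-let-7c and gga-mir-125b-2, had 151 reads in shLSD1 and 203 in Blank, a log2 ratio of -0.34 (-0.66 to -0.03). Of the loci in it, gga-mir-125b-2 had 13 reads in shLSD1 and 14 in Blank. An interval below 0 was found for 15.4% of all genes with at least 20 reads, so such values were common in this comparison.

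Neighbouring loci were summed as clusters. Joined at gaps of up to 10 kb on the same strand, 143 loci formed 60 clusters, of which 30 had no reads, 8 had at least 20 and 0 of these 8 had an interval that left out 0. Among genes with 20 to 172 reads, 14.6% had such an interval. The growth-linked cluster of gga-mir-17, gga-mir-18a, gga-mir-19a, gga-mir-20a, gga-mir-19b and gga-mir-92-1 was at 0 in both libraries. So were the loci of liver (gga-mir-122), neurons (gga-mir-124 and gga-mir-9), blood (gga-mir-142, gga-mir-223 and gga-mir-451) and gonad (gga-mir-202), and those of gga-mir-21, gga-mir-155, gga-mir-221, gga-mir-10a and gga-mir-10b. Some of these loci lie in a same-strand assembled model that held reads. The model over gga-mir-202 held 22 in shLSD1 and 33 in Blank, and that over gga-mir-221 held 115 in shLSD1 and 90 in Blank. Over gga-mir-10a it was 816 in shLSD1 and 914 in Blank, and over gga-mir-21 4 in shLSD1 and 1 in Blank. The others had no same-strand cover, but a model 1 base from gga-mir-92-1 held 47 reads in shLSD1 and 49 in Blank. The pluripotency cluster of gga-mir-302 and gga-mir-367 held 0 reads in shLSD1 and 1 in Blank over 5 loci. For muscle, 2 reads in shLSD1 and 0 in Blank were found over 7 loci, and for epithelium 0 in shLSD1 and 1 in Blank over 3. The mesenchymal list held more, with 15 reads in shLSD1 and 19 in Blank over 4 loci. All were on gga-mir-199-1 and gga-mir-199-2, both of which lie opposite another gene. The other members, gga-mir-214 and gga-mir-199b, were at 0 in both libraries. Over the whole list, 10 of 52 loci had reads, or 19.2% (Wilson 95% interval 10.8% to 31.9%), which includes the 28.1% of all miRNA loci. Outside the growth cluster and the loci not tied to a tissue, it was 7 of 31. A locus listed at 0 may reflect depth or how overlapping features were counted, which cannot be told apart here, and mature miRNAs were not measured.

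The genes that make and use miRNAs were read from a list of 27, of which 22 are listed in the files. Of these, 12 were at 0 in both libraries, all beneath a same-strand assembled model, and 11 of the 12 models held reads. Reads of the models over at least 90% of a gene were therefore added to its own, a choice made after the data were seen, which left 16 genes with at least 20 reads. None of the 16 was 2-fold apart. Such differences were rare among all genes too, at 4.03% of those with at least 20 reads, so 0 of 16 does not set the pathway apart. The log2 ratios of the 16 genes ran from -0.55 to 0.37, and the median was -0.11. The interval lay below 0 for 5 of 16 and above 0 for 2, while among all genes with at least 20 reads it did so for 15.4% and 12.9%. These shares depend on depth, and among genes with 20 to 172 reads they were 6.86% and 7.71%. The background was not matched to the depth of the 16 genes and adds no models to genes. Whether the pathway differs from genes of its depth was therefore not tested.

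DGCR8 and the Microprocessor helpers DDX5 and DDX17 had intervals below 0, and none was 2-fold apart with models added. DGCR8, the RNA-binding partner of DROSHA, had 580 reads in shLSD1 and 847 in Blank, a log2 ratio of -0.46 (-0.62 to -0.31). The helicase DDX5 had 766 reads in shLSD1 and 1184 in Blank (-0.55, -0.68 to -0.41). Without its model, DDX5 had 26 reads in shLSD1 and 65 in Blank, a log2 ratio of -1.22, the single 2-fold difference among 4 pathway genes with at least 20 reads of their own. Its paralog DDX17 had 818 reads in shLSD1 and 1053 in Blank (-0.28, -0.42 to -0.15). DROSHA itself was at 0, as was its model. RAN, the GTPase behind nuclear export of the precursor, had 2247 reads in shLSD1 and 2666 in Blank (-0.16, -0.25 to -0.08), and XPO5, the exporter, had 0 in shLSD1 and 1 in Blank. For DICER1, 304 reads in shLSD1 and 352 in Blank gave -0.13 (-0.36 to 0.10).

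The Argonaute genes differed in sign. AGO2, the member that can cut its targets, had 572 reads in shLSD1 and 740 in Blank (-0.29, -0.45 to -0.13), AGO3 had 1486 reads in shLSD1 and 1307 in Blank (0.27, 0.16 to 0.38), and AGO1 had 743 in shLSD1 and 744 in Blank. Of the silencing partners, the helicase MOV10 had 382 reads in shLSD1 and 338 in Blank (0.26, 0.04 to 0.47), and the scaffold genes TNRC6A, TNRC6B and TNRC6C had intervals that include 0. Some of the let-7 regulators were scarce: LIN28A had 3 reads in shLSD1 and 2 in Blank (0.57, -2.46 to 4.25). LIN28B had 3 in shLSD1 and 4 in Blank, and TRIM71 had 1 in shLSD1 and 2 in Blank. The paper names Lin28A among the genes that differed in its RNA-seq of SSCs treated for LSD1. It also reports Lin28A as higher after LSD1 interference by quantitative PCR. The 5 LIN28A reads here are too few to show such a difference. TUT4, which adds uridines to the let-7 precursor bound by LIN28A, had 60 reads in shLSD1 and 62 in Blank, and DIS3L2, the nuclease that degrades it, had 124 in shLSD1 and 147 in Blank (-0.16, -0.52 to 0.19). The exonuclease XRN2 had 1543 reads in shLSD1 and 1729 in Blank (-0.08, -0.18 to 0.02).

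**Figure D5:**
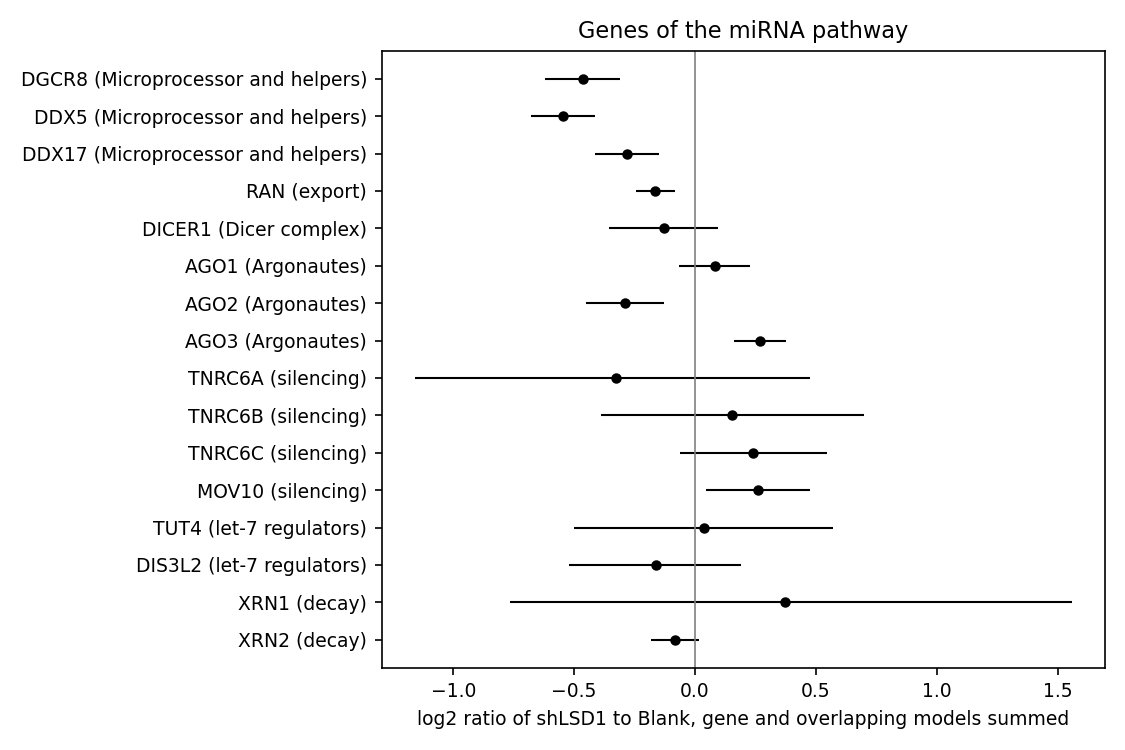
log2 ratio of shLSD1 to Blank (horizontal axis) for the 16 miRNA pathway genes with at least 20 reads once overlapping assembled models were added, with Clopper-Pearson 95% intervals. DGCR8, DDX5 and DDX17 lie at -0.46, -0.55 and -0.28. All 16 points are within 2-fold, as were all but 4.03% of genes with at least 20 reads.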

How the data were processed

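RNA-seq libraries were made from 1 µg of total RNA with a TruSeq RNA kit. The authors deposited whole-number counts of reads per gene without normalization, and FPKM, which scales each count by gene length and library size. How reads over more than 1 gene were counted is not given in the sources used here. The submitters' processing notes name Bowtie 0.12.2 and the mouse builds mm8 and mm9, with no role stated. In the tables, 4 columns of values (Control and MLL2_sh) matched no sample and were not used. The authors' own comparison table (adjusted counts, fold changes and p-values) was not used.

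The rule for members, the gene lists and the limits was chosen with earlier results of these data known. Named were the loci with at least 20 reads (with the 5 highest and 5 lowest ratios among them), the let-7 loci, loci of a tissue list, their covering genes and models, the miRNA pathway genes and KDM1A. Loci with 10 to 19 reads that were apart from their host, gga-mir-126 beside them and the nearest genes were named after their values were seen. Log2 ratios used the sum of listed counts and a prior count of 0.5. A 95% interval of a log2 ratio was the Clopper-Pearson interval of the reads given the library totals, that of a ratio of ratios was exact and conditional, and the calculations were tested on simulated data. Intervals cover counting error only, since each group has 1 library. They treat every read as independent, so copies made by PCR, if not removed, would make them too narrow. A count of 0 was taken to allow 3 reads. Of the 648 named loci, 601 matched RefSeq by name. A planned test of the share at 0 by cover was not run, since loci are not independent. Alternatives were edgeR 4.0.16 TMM, DESeq2 1.42.0 size factors, upper-quartile scaling, a prior count of 5, totals that leave out the 20 genes with the most reads, FPKM with a pseudocount of 0.1 or 1, other read filters, a 1.5-fold threshold, and other definitions of cover, host and cluster. Software was R 4.3.3 and Python 3.11.15 with matplotlib 3.10.9, pandas 2.3.3 and scipy 1.17.1.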

Additional observations from a re-analysis of the deposited data

How the results depend on the processing

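The depth of 8245826 reads in shLSD1 and 8731455 in Blank limits these loci, since 271 of the 295 with reads had under 20. The number of loci with reads was 139 when at least 3 reads were asked for and 146 when a read was needed in each library. The share of covered loci at 0 was 66.2%, and 59.6% when assembled models alone counted as cover. Loci at least 2-fold higher numbered 1 of 46 (2.17%) with at least 10 reads. This was below the 4% of all genes at that limit and the 7.93% of those with no more than 172 reads. With at least 100 reads 0 of 3 were higher, against 0.447% of all genes and 1.73% of those with no more than 172 reads. At that limit 1 of 3 (33.3%) was at least 2-fold lower, which is gga-mir-1661. The shares were 0.326% of all genes and 0.945% of those with no more than 172 reads. Loci at least 2-fold lower numbered 5 of 46 (10.9%) with at least 10 reads. This was above the 3.17% of all genes at that limit and the 6.24% of those with no more than 172 reads. However, 22 of the 46 loci had only 10 to 19 reads, and neither background was matched to that depth. Whether the excess goes beyond counting error was not tested. With no filter, 95 of 295 loci (32.2%) were higher and 80 (27.1%) lower, against 11.3% and 9.92% of all genes and 18.1% and 15.8% of those with no more than 172 reads, and 156 of the 295 loci had 1 or 2 reads. At 1.5-fold, 3 of 24 were higher (12.5%, against 7.04% of all genes and 14.7% in the same range) and 2 lower (8.33%, against 6.38% and 12.9%). The backgrounds by range were chosen after seeing the data. These settings change the number of loci or the threshold by construction. The 4 other scalings, a prior count of 5 and FPKM left both counts at 1. The log2 ratio of summed reads of covered loci, -0.24, was -0.0050 without the locus with the most reads, which is gga-mir-1661. Loci apart from their host numbered 1 of 8, and 3 of 21 with at least 10 reads, a limit chosen after seeing the data. No background share was computed for either count. Pathway genes 2-fold apart numbered 1 of 4, against 4.03% of all genes with at least 20 reads. With at least 100 reads it was 0 of 2, where 0.447% of all genes were higher and 0.326% lower. With no filter it was 3 of 10, where 11.3% of all genes were higher and 9.92% lower. With overlapping models added, an alternative also chosen after seeing the data, it was 0 of 16. The log2 ratios of the 24 loci with at least 20 reads each stayed within their interval in all 7 alternatives that change scaling or prior count. Leaving out a replicate was not possible with 1 library a group. No paired analysis was possible because shLSD1 and Blank have a single library each.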
